A study of Mus musculus with 8 samples.

Results

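The regions described here carried a FLAG-tagged NANOG peak with wild-type NANOG only, yet carried a BRG1 peak in cells given the fusion form of NANOG. The peaks of 4 lists, FLAG and BRG1 in each arm, were merged into regions wherever they overlapped or touched. A region was kept when it held a NanogWT FLAG peak, no NanogBiD FLAG peak and a NanogBiD BRG1 peak, whether or not NanogWT also had BRG1 there. This gave 1732 member regions of 93352 regions in all. In 969 members BRG1 was called in NanogBiD only, and in 763 it was called in both arms. The NanogBiD-only share, 55.9%, fell to 25.3% of 79 members when both defining peaks had to score at least 100. Over all regions 52922 had a NanogBiD BRG1 peak, of which 24759 had BRG1 in both arms. That split was similar to the split of the 1732 members.

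The cells were mouse embryonic fibroblasts (MEFs) from mid-gestation embryos of a cross between OG2 reporter males and 129 females, taken at day 5 of reprogramming after retroviral delivery of Oct4 with a FLAG-tagged Nanog. Both arms received Oct4. The NanogWT arm, labelled Nanog+Oct4, received wild-type Nanog, and the NanogBiD arm, labelled NanogN70+Oct4, received Nanog fused to the BRG1-interacting domain of SS18; that the label names this fusion is taken from the study's text. CUT&Tag, in which an antibody tethers a transposase that cuts and tags the DNA nearby, was run for FLAG, BRG1, H3K27ac and H3K4me1 in each arm. That gave 8 groups with 1 library each, made from merged replicates (their number is not given for these libraries, and the study states only a general minimum for its experiments), so no test between the arms was possible and every value below describes these libraries. The genes were delivered by retrovirus to a culture of cells, and no sorting before the assay is stated. H3K27ac was called at the promoters of 7 of 8 fibroblast genes in both arms, against 0 of 4 blood genes in NanogWT and 1 of 4 in NanogBiD (Ptprc), and 1 of 4 neuron genes in NanogWT and 2 of 4 in NanogBiD; the part of other cells in the results was not tested.

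NANOG is a homeodomain transcription factor of the pluripotent state, and OCT4, which pairs with SOX factors, is its partner in both arms. BRG1 (Smarca4) is the ATPase of the BAF complex, which moves nucleosomes, and SS18 is a subunit of that complex. H3K4me1 marks enhancers and the flanks of promoters, and H3K27ac marks those that are active.

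Short stretches of the reference genome (GRCm38, plus strand, RefSeq) are shown around the NanogWT FLAG summit of 6 members. The first pair stands for the members away from promoters with an AP-1 match, the next pair for promoter members, the fifth for the member with the highest NanogWT FLAG score, and the last for a member that had H3K27ac in NanogWT only. Capitals mark matches, on either strand, to motifs that were searched: TGACTCA for AP-1, GGAATG for TEAD, CCAAT for NF-Y, GGGCGG for the GC box, ATGCAAAT for the OCT octamer and ACAATG for SOX.
Intergenic, nearest gene Nrp1, chr8:128165071-128165171: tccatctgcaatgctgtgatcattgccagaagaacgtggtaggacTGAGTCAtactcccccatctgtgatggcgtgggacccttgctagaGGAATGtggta
Intron, nearest gene Wscd1, chr11:71541688-71541788: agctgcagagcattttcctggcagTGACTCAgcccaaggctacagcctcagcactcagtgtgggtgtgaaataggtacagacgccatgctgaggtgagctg
Klf6 promoter, chr13:5861263-5861363: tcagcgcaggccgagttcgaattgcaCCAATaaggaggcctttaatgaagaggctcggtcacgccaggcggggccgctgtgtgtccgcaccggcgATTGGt
Taf1c promoter, chr8:119605252-119605352: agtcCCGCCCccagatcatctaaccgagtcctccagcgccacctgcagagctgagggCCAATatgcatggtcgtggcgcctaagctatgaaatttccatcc
Intergenic, nearest gene Pde1a, chr2:80144477-80144577: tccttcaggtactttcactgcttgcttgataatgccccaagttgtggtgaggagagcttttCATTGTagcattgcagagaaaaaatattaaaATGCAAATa
Intron of Trub1, chr19:57476011-57476111: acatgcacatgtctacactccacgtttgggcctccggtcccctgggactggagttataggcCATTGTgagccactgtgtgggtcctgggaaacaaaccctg

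The members were low peaks beside regions with all 4 peaks, and nearer to regions as a whole. Height is given as the number of tags piled up at the summit, a whole number in every list; the depth of the libraries is unknown. The NanogWT FLAG summits of the members ran from 6 to 52 tags with a median of 12, against a median of 20 tags in the 22084 regions with FLAG and BRG1 in both arms. Their NanogBiD BRG1 summits had a median of 10 tags (range 6 to 39), against 17 tags in those regions. Over all regions with the peak the medians were 14 NanogWT FLAG tags and 13 NanogBiD BRG1 tags. Only 25.9% of the members (95% Wilson interval 23.9 to 28.0) reached 15 FLAG tags, against 76.2% (75.6 to 76.7) of the regions with all 4 peaks. Other regions with FLAG in NanogWT only were also low, and 33.0% (30.6 to 35.5) of those with BRG1 limited to NanogWT and 14.5% (13.9 to 15.2) of those without BRG1 reached it. The members were chosen by the presence of FLAG and BRG1 peaks, so FLAG and BRG1 heights and scores are described and not tested. The Wilson intervals here and below cover the counting of regions only, and intervals that overlap do not show that shares are equal.

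**Figure D1:**
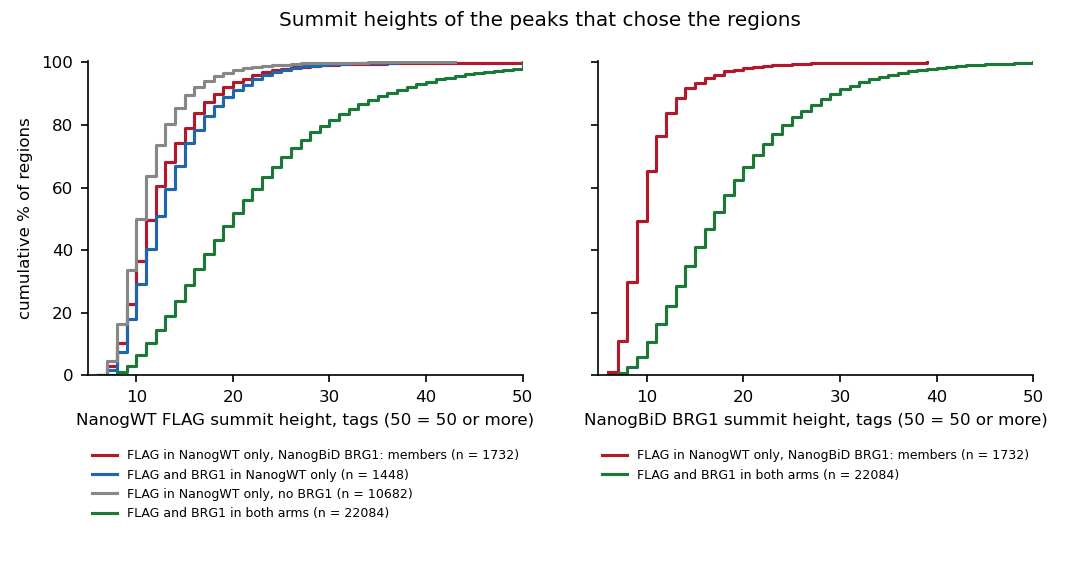
Cumulative share of regions (y axis, %) by NanogWT FLAG summit height (left) and NanogBiD BRG1 summit height (right), in tags, with 1 line per kind of region. The members lie to the left of the regions with FLAG and BRG1 in both arms, with medians of 12 against 20 FLAG tags and 10 against 17 BRG1 tags.

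Many members lay near the lowest score of the peak lists, 50. The NanogWT FLAG score was below 60 in 317 members and the NanogBiD BRG1 score was below 60 in 658. Just outside the rule, of the regions with FLAG in both arms and NanogBiD BRG1, 799 (2.20%) had a NanogBiD FLAG score below 60. When both peaks that make a member had to score at least 100, 79 members were left.

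The median distance from the NanogWT FLAG summit to the NanogBiD BRG1 summit was 100 bp (quartiles 38.0 and 203 bp), and 868 of 1732 members had them within 100 bp. The rule merges these peaks, so their nearness is no finding. A NanogBiD FLAG peak lay within 500 bp of the region in 5.72% of members (4.72 to 6.91), within 1 kb in 10% (8.72 to 11.6) and within 5 kb in 36.4% (34.2 to 38.7). Where both FLAG and BRG1 were limited to NanogWT, 39.0% (36.5 to 41.6) of regions had a NanogBiD FLAG peak within 5 kb.

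Members made up 12.5% (12.0 to 13.1) of the 13862 regions with FLAG in NanogWT only. Over all regions a NanogBiD BRG1 peak was called in 56.7%. The remainder split into 1448 regions whose BRG1 peak was likewise limited to NanogWT and 10682 without BRG1 in either arm. These 2 kinds, called the BRG1-losing and the BRG1-free regions below, serve as comparisons for the members. The 1855 mirrored regions are a further comparison, with FLAG in NanogBiD only and BRG1 in NanogWT. The NanogBiD BRG1 list held 53748 peaks and the NanogWT list 30859.

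BRG1 was slightly lower in NanogBiD at the members that had it in both arms. Taken as log2 of the NanogBiD over the NanogWT height, the median was -0.14 (interval of the median -0.15 to -0.09, n = 763 regions), and 55.4% of these members were lower in NanogBiD against 33.5% of all 24759 regions with BRG1 in both arms. BRG1 was higher in NanogBiD at 29.4% of them, against 57.6% of all such regions, where the median was 0.14 (0.13 to 0.14). Of the 763 members 14 were at least 2-fold lower and 1 at least 2-fold higher, against 115 and 1830 of all 24759 such regions. Mirrored regions with BRG1 in both arms had a median of 0.09. The rule itself required a NanogBiD BRG1 peak, so this is a description. Among the members where both defining peaks scored at least 100 the median was 0.00 (n = 59).

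**Figure D2:**
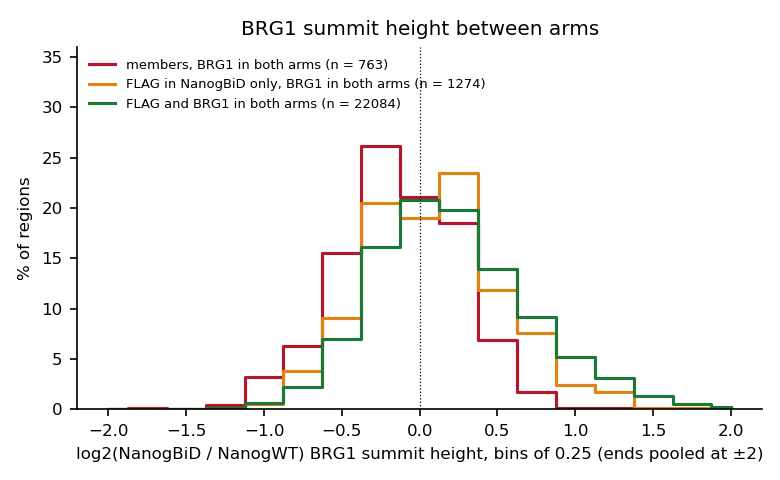
Share of regions (y axis, %) by log2 of NanogBiD over NanogWT BRG1 summit height (x axis), where both arms have BRG1. The members have a median of -0.14, the mirrored regions 0.09 and the regions with FLAG and BRG1 in both arms 0.15.

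Most members that carried H3K27ac with wild-type NANOG carried it in NanogBiD too. H3K27ac was called in both arms in 38.0% of members (35.7 to 40.3), in NanogWT only in 13% (11.5 to 14.7), in NanogBiD only in 9.12% (7.86 to 10.6) and in neither arm in 39.9% (37.6 to 42.2). Over all regions, H3K27ac in both arms made up 29.1%, NanogWT-only 5.25%, NanogBiD-only 13.1% and neither arm 52.5%. The lean to NanogWT was not particular to the members, since it was 32.6% against 4.90% in the BRG1-losing and 11.6% against 3.32% in the BRG1-free regions, and at promoter members the order was the other way (9.20%, 7.09 to 11.9, against 11.7%, 9.29 to 14.6). Of 883 members with NanogWT H3K27ac, 658 kept it, that is, had a NanogBiD peak too, a share of 74.5% (71.5 to 77.3). Across all regions 84.7% kept it. With both defining peaks at a score of at least 100, 2.53% of the 79 members had H3K27ac in NanogBiD only and 15.2% in NanogWT only, and 81.0% (69.6 to 88.8) kept it.

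The kept share differed with BRG1. The BRG1-losing regions kept H3K27ac in 49.1% (45.9 to 52.4), 25.4 percentage points below the members (Newcombe 95% interval of the difference 21 to 29.6). The BRG1-free regions kept it in 32.6% (30.5 to 34.8), and the mirrored regions kept it at 87.5% (85.2 to 89.4). Within the members, those with BRG1 in both arms kept H3K27ac at 79.9% (76.4 to 83.0) and those with BRG1 in NanogBiD only at 65.2% (59.9 to 70.2), a difference of 14.7 points (8.60 to 20.9). These kinds of region also differed in width, as given below, and the part of width was not tested.

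Promoters and sites away from them gave the same order. Promoters, taken as 2 kb either side of a start site, kept H3K27ac in 87.0% of members (83.4 to 90.0) and in 71.2% (65.6 to 76.2) of the BRG1-losing regions, against 93.9% of all promoter regions. Away from promoters the shares were 64.1% (59.7 to 68.3) and 39.7% (36 to 43.5), against 77.2% in all such regions. Signal strength moved with the kept share as well. Members whose NanogWT H3K27ac summit held 10 to 14 tags kept it in 61.9% of cases (56.5 to 66.9), and those with 15 tags or more in 86.0% (82.7 to 88.8). At those heights the BRG1-losing regions kept it in 36.2% (31.6 to 41.0) and 62.3% (57.8 to 66.5), below the members, and all regions in 71.5% and 93.6%, above them. Below 10 tags the intervals overlapped, at 48.2% (35.7 to 61.0) of 56 members and 30.9% (20.3 to 44.0) of 55 BRG1-losing regions. Among members with 10 to 14 tags, those with BRG1 in both arms and in NanogBiD only had overlapping intervals, with kept shares of 63.9% (56.4 to 70.8) and 59.8% (52.1 to 67.0), whereas at 15 tags or more the shares were 88.8% (85.2 to 91.6) and 78.1% (70.2 to 84.4). The members exceeded the BRG1-losing regions in 6 of 6 alternatives that keep to the members, by 24.2 to 36.8 points. Some of these hold nearly the same members (1729 of 1732 under direct overlap of the defining peaks), so they are not 6 separate checks.

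**Figure D3:**
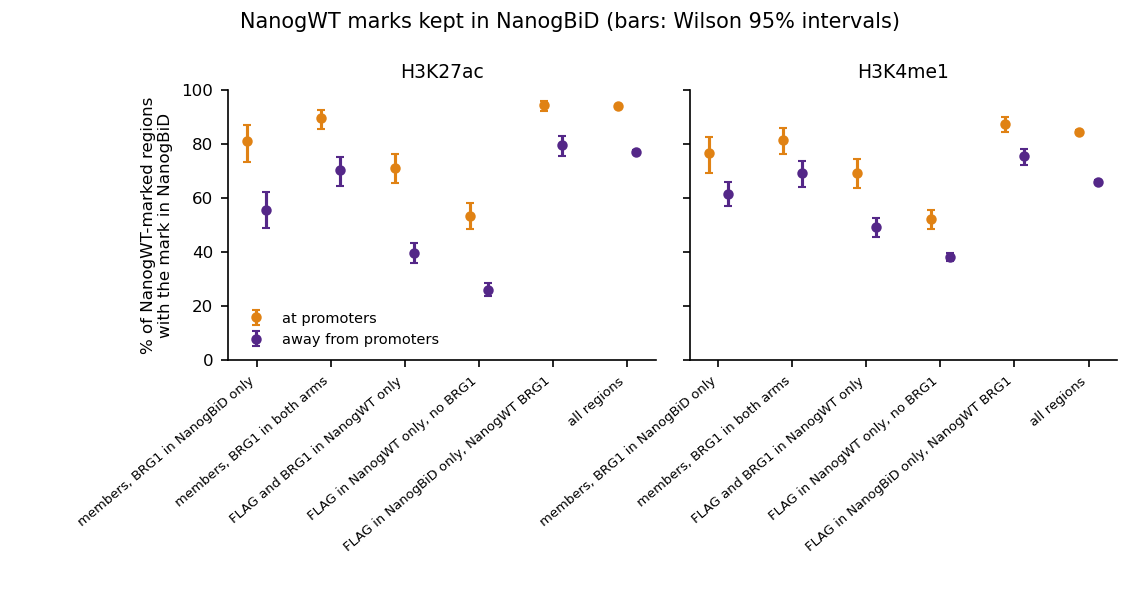
Share of regions with a NanogWT mark that also have the mark in NanogBiD (y axis, %), at promoters and away from them, with Wilson 95% intervals. For H3K27ac away from promoters, members with BRG1 in both arms stand at 70.3%, members with BRG1 in NanogBiD only at 55.7% and BRG1-losing regions at 39.7%.

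Gain of H3K27ac was near the background over the members as a whole, but above it at promoters and below it elsewhere. Of 849 members without NanogWT H3K27ac, 158 had it in NanogBiD, which is 18.6% (16.1 to 21.4) against 19.9% of all regions without it. At promoters the share was 40.2% (33.0 to 47.9, 66 of 164) against 27% of all such promoters, and away from them 13.4% (11.1 to 16.2) against 18.8%. In the mirrored regions it was 41.9% (38.7 to 45.2). Where both arms had the mark, its height ratio had a median of 0.00 (log2) over the members, with 0.05 (0.00 to 0.11, n = 349) at promoters and -0.15 (-0.24 to -0.12, n = 309) away from them, against 0.08 over all regions. The 0.08 pools promoters and other sites, as do the medians of -0.14 in the BRG1-losing and -0.09 in the BRG1-free regions.

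Of the 225 members with H3K27ac in NanogWT only, 4 had a NanogBiD H3K27ac peak within 500 bp and 46 (20.4%, 15.7 to 26.2) within 5 kb. In the BRG1-losing regions 24.2% (20.5 to 28.2) had a peak within 5 kb, so the intervals overlapped. The tallest of all members, at the promoter of Klf6, which encodes a zinc finger transcription factor, is one of them. There NanogWT FLAG reached 52 tags and BRG1 38 tags in NanogWT and 39 in NanogBiD, and the CCAAT matches shown above lie at the FLAG summit. H3K27ac stood at 47 tags in NanogWT and no NanogBiD peak was called within 13.8 kb, while H3K4me1 was called in both arms with 25 and 17 tags. The region is 7.07 kb wide and holds several peaks, and a NanogBiD FLAG peak lay 2.32 kb away. A tall summit in a wide region can score near the lowest value. Another member, 5.80 kb wide and chosen after values were seen, had 43 NanogWT FLAG tags and a score of 65. Signal outside called peaks was not read, so a missing call at Klf6 or another wide member need not mean low signal. The next members by score with H3K27ac in NanogWT only were an intron of Trub1, which encodes a pseudouridine synthase (10 tags of H3K27ac), and a site 21.7 kb from Dnah5, an axonemal dynein gene (14 tags).

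The leading 3 members by score with H3K27ac in NanogBiD only were the promoters of Cebpa, a transcription factor of adipocytes and myeloid cells, with 10 H3K27ac tags, of Cfap299 with 8 tags and of Mical2, an enzyme that oxidises actin, with 10 tags. All 3 had H3K4me1 in both arms. Cebpa had 16 NanogWT FLAG tags, and BRG1 of 10 tags in NanogWT and 13 in NanogBiD.

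Over all members H3K4me1 was the more frequent mark. At promoters 401 members had NanogWT H3K27ac and 407 NanogWT H3K4me1, and in NanogBiD H3K27ac was the more frequent there. Of the members with both defining peaks at a score of at least 100, 63 had NanogWT H3K27ac and 62 NanogWT H3K4me1. H3K4me1 was called in both arms in 48.1% of members (45.7 to 50.4), in NanogWT only in 20.8% (18.9 to 22.8), in NanogBiD only in 6.29% (5.24 to 7.54) and in neither arm in 24.8% (22.8 to 26.9). Over all regions H3K4me1 in both arms made up 36.2%, NanogWT-only 13.9%, NanogBiD-only 9.52% and neither arm 40.4%. The NanogWT list was the longer for this mark (72242 against 57156 peaks), and in lists of the 20000 highest-scoring peaks the order turned, with 9.56% of members in NanogWT only and 12.1% in NanogBiD only. That alternative names other regions, since 2 of its 1820 regions overlapped a member. With both defining peaks at a score of at least 100, 7.59% of the 79 members had it in NanogWT only and 2.53% in NanogBiD only.

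**Figure D4:**
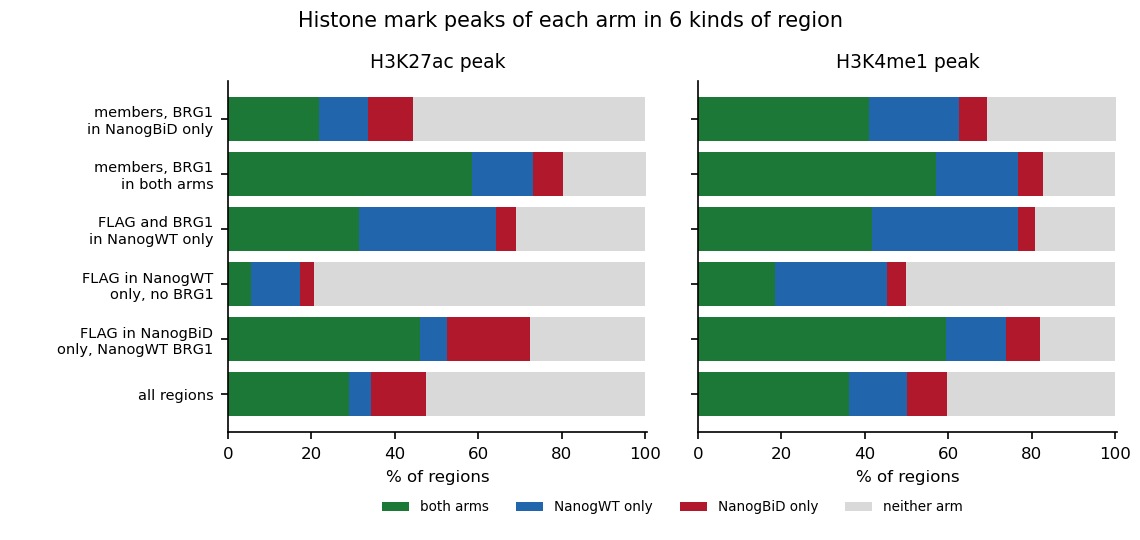
Share of regions (x axis, %) with an H3K27ac peak (left) or an H3K4me1 peak (right) in both arms, NanogWT only, NanogBiD only or neither, in 6 kinds of region. H3K27ac in both arms covers 58.5% of members with BRG1 in both arms and 21.9% of those with BRG1 in NanogBiD only.

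H3K4me1 was kept in 69.8% (67.2 to 72.4) of the 1193 members that had it in NanogWT, close to the 72.3% of all regions; with both defining peaks at a score of at least 100 it was 90.3% (80.5 to 95.5) of 62. The BRG1-losing regions kept it in 54.4% (51.4 to 57.3), a difference of 15.5 points (11.5 to 19.3), and the BRG1-free regions in 40.5% (39.1 to 41.9). Members with BRG1 in both arms kept it in 74.4% (70.7 to 77.8) and those with BRG1 in NanogBiD only in 65.4% (61.5 to 69.1). At promoters this difference was 4.94 points (-3.00 to 13.3), and where NanogWT H3K4me1 had 15 tags or more the shares were 77.9% (74.0 to 81.5) and 74.7% (70.0 to 78.9), with overlapping intervals. Where both arms had H3K4me1 it was the lower in NanogBiD, and log2 of the height ratio had a median of -0.25 (-0.28 to -0.22, n = 833) at members against -0.18 over all regions. This median was -0.38 in the BRG1-losing and -0.29 in the BRG1-free regions. Away from promoters the members kept H3K4me1 in 64.8% (61.4 to 68.0), against 66.1% of all such regions. Of 539 members without NanogWT H3K4me1, 20.2% (17 to 23.8) had it in NanogBiD, against 19.1% of all regions.

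Both marks were then read jointly. With wild-type NANOG, 679 members (39.2%) had both marks, 514 (29.7%) H3K4me1 alone, 204 (11.8%) H3K27ac alone and 335 (19.3%) neither. Over all regions these shares were 28.2%, 21.9%, 6.24% and 43.7%. Of the members with both marks, 411 (60.5%) had both in NanogBiD and 71 (10.5%) had neither, against 75.6% and 6.27% of all regions that began with both and 36% and 28.1% of such BRG1-losing regions. Of those with H3K4me1 alone, the usual state of a primed enhancer, 233 (45.3%) stayed so, 163 (31.7%) had no mark in NanogBiD and 92 (17.9%) had both. Over all regions with H3K4me1 alone these shares were 34.0%, 33.0% and 25.4%. Members with no mark mostly stayed without one, 259 of 335 (77.3%), as did 74.8% of all such regions.

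A promoter lay in 565 members, 32.6% (30.5 to 34.9), against 24.4% of all regions. The share was 45.0% (41.5 to 48.5) in members with BRG1 in both arms and 22.9% (20.4 to 25.7) in those with BRG1 in NanogBiD only, a difference of 22.0 points (17.6 to 26.4). It was 26.0% (23.8 to 28.3) in the BRG1-losing and 14.1% (13.4 to 14.8) in the BRG1-free regions. Of the other members 610 lay in introns, 513 between genes and 44 in exons. The 1167 members away from promoters lay a median of 31.4 kb from the nearest start site of a protein-coding gene, whereas promoters were taken over genes of every type. With both defining peaks at a score of at least 100 the promoter share rose to 45.6% of 79 members. The regions also differed in width. Their median was 1068 bp in members with BRG1 in both arms and 805 bp with BRG1 in NanogBiD only. It was 984 bp in the BRG1-losing and 662 bp in the BRG1-free regions. Overlaps needed 1 bp, so a wider region can reach a promoter or mark peak more readily, and the part of width was not tested.

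Base composition differed in the same direction as the promoter share. The bases within 50 bp of the FLAG summit were 53.5% G and C (median) in members with BRG1 in both arms and 45.5% in those with BRG1 in NanogBiD only. At least 5 CpG dinucleotides stood in 28.4% (25.4 to 31.7) of the former and 10.6% (8.84 to 12.7) of the latter. The FLAG summit lay in sequence that the reference marks as repeat in 7.99% (6.27 to 10.1) and 13.7% (11.7 to 16). Over all NanogWT FLAG regions the median was 45.5% G and C, 15.9% had at least 5 CpG and 11.3% lay in repeat.

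The members reached the promoters of 523 protein-coding genes. In the 20 that ranked highest, by the lower of the NanogWT FLAG and NanogBiD BRG1 scores, BRG1 was called in both arms at 18 and H3K27ac in both arms at 19, and the exception for H3K27ac was Klf6. Over all promoter members BRG1 was called in both arms at 343 of 565 and H3K27ac in both arms at 61.8%, and 59.9% of all promoter regions had H3K27ac in both arms; the 20 were ranked by the scores that made them members. At Stc2, which encodes the secreted glycoprotein stanniocalcin, NanogWT FLAG had 14 tags and BRG1 7 tags in NanogWT and 11 in NanogBiD, and each arm had 12 H3K27ac and 17 H3K4me1 tags. At Xkr4, a membrane protein gene, FLAG had 12 tags and BRG1 17 in NanogWT and 12 in NanogBiD.

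Taf1c, which encodes a subunit of the RNA polymerase I initiation factor, and Rasl11b, a small GTPase gene, were the promoters of the 20 where BRG1 was called in NanogBiD only, each with 11 tags. H3K27ac at Taf1c had 17 tags in NanogWT and 26 in NanogBiD, and its FLAG summit had 11 tags. At Ccdc17 H3K27ac had 16 and 31 tags, and BRG1 11 and 10 tags. H3K27ac went the other way at Herc6, an interferon-inducible ligase gene, with 33 tags in NanogWT and 27 in NanogBiD. The promoters of Hace1, a ubiquitin ligase gene, and Slc8a1, the sodium-calcium exchanger gene, had the same H3K27ac height in both arms, 14 and 13 tags.

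Away from promoters, the highest-scoring member with BRG1 in both arms lay 193 kb from Nrp1, a semaphorin and VEGF co-receptor gene, and is the first sequence above. FLAG had 17 tags, BRG1 18 tags in each arm, H3K27ac 12 tags in each arm, and H3K4me1 fell from 23 to 10. The highest-scoring member with BRG1 in NanogBiD only, in an intron of 9230020A06Rik with Wscd1 as the nearest coding gene, had 12 FLAG tags, 10 BRG1 tags and H3K27ac of 17 tags in NanogWT and 9 in NanogBiD. The member with the highest FLAG score, 15.1 kb from the phosphodiesterase gene Pde1a, had 37 FLAG tags, BRG1 of 10 tags in NanogWT and 8 in NanogBiD, and H3K27ac of 14 tags in NanogWT only. Its summit holds the OCT octamer and SOX matches shown above. Pde1a was chosen after values were seen.

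Listed genes were counted when a member lay in the gene or within 20 kb of it, which was so for 8.12% of 22028 protein-coding genes. Long genes can be reached more readily, so the median gene length is given beside each count (17.3 kb over all genes). No list was tested.

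Members lay at 7 of 36 extracellular matrix genes (19.4%, median gene length 41.6 kb), 4 of 26 mesenchymal transcription factors (15.4%, 15.4 kb) and 3 of 30 actin and contractile genes (10%, 24.9 kb). The pluripotency list held 1 of 35 genes (2.86%, 11.9 kb), Esrrb, an orphan nuclear receptor, where an intragenic member 12 kb from the start site had 12 FLAG tags, 7 NanogBiD BRG1 tags, H3K27ac of 11 tags in NanogBiD only and H3K4me1 of 26 tags in NanogWT and 12 in NanogBiD. Ribosomal protein genes, which all cells use, had 9 of 50 (18%, 3.81 kb), a share much like that of the matrix list.

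Among the matrix genes, Col12a1, a fibril-associated collagen, had a member at its promoter with 18 FLAG and 13 NanogBiD BRG1 tags and no peak of either mark in either arm. Postn (periostin, a matrix adhesion protein) had 20 FLAG and 17 NanogBiD BRG1 tags with no mark and no NanogWT BRG1. Fbln2, Fbln5, Lum and Col8a1 also had a member.

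Of the mesenchymal transcription factors 3 had the member at their promoter. Tbx15, a T-box factor, had 17 FLAG tags, BRG1 of 8 and 12 tags in NanogWT and NanogBiD and H3K27ac of 22 and 20 tags. Six2, a homeodomain factor of mesenchyme, had BRG1 of 8 and 10 tags, no H3K27ac and H3K4me1 of 18 tags in NanogWT only. Zeb1, which represses epithelial genes, had 13 FLAG tags, BRG1 in NanogBiD only (9 tags) and H3K27ac of 17 and 18 tags. Runx2, a factor of the bone lineage, had an intragenic member with neither mark.

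The AP-1 family (bZIP factors that bind TGACTCA) had a member at 4 of 19 genes (21.1%, 11.1 kb). Mafk, at its promoter, had BRG1 of 20 tags in NanogWT and 14 in NanogBiD, and H3K27ac of 28 tags in NanogWT with no NanogBiD peak within 14.7 kb. Fos, with a member 3.36 kb from its start site, had 23 FLAG tags and BRG1 of 15 and 18 tags without either mark. Bach1 had BRG1 of 15 and 12 tags and H3K27ac of 20 and 15 tags, and Batf2 had BRG1 in NanogBiD only.

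The TEAD and Hippo list, which holds the factors and kinases that read cell tension and density, had 5 of 26 genes with a member (19.2%, 39.3 kb). Tead1 had BRG1 and H3K27ac in NanogBiD only at its promoter, with 13 and 14 tags and 9 FLAG tags. Yap1, the coactivator of the pathway, had BRG1 of 12 tags in each arm, H3K27ac of 17 and 13 tags and H3K4me1 of 24 tags in NanogWT only. Tead4, Vgll4 and Stk3 had members in the gene or near it.

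The TGF-beta and BMP list had 7 of 38 genes (18.4%, 42.6 kb). Acvr1, a type I receptor, had 26 FLAG tags at its promoter, the highest of any listed gene, with BRG1 of 16 tags in each arm and H3K27ac of 23 and 25 tags. Id3, a target of BMP signalling, had BRG1 in NanogBiD only (18 tags) and H3K27ac of 25 and 28 tags. Smad3, which carries the signal to the nucleus, had BRG1 of 14 and 12 tags, H3K27ac of 16 and 17 tags and H3K4me1 of 23 and 19 tags. Of the remaining lists, the actin list had Pdlim7, Tpm1 and Vcl, the epithelial list Tjp1, Krt18 and Rab25 (3 of 26) and the BAF subunits Phf10 (1 of 30). Over the listed genes other than ribosomal ones, 36 members lay at 35 genes, with H3K27ac in both arms at 20, in NanogWT only at 1, in NanogBiD only at 3 and in neither arm at 12. Over all members the shares were 38.0%, 13%, 9.12% and 39.9%.

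Motif matches were counted in the summit base and 50 bp either side of the NanogWT FLAG summit and in windows of the same length 1 kb downstream. AP-1 matches were more frequent than in the flank but near their share of all NanogWT FLAG windows. TGACTCA, on either strand, stood in 5.08% of the member windows (4.14 to 6.22) and in 1.27% (0.84 to 1.92) of those 1 kb away, and 5.84% of all NanogWT FLAG windows held it. Members away from promoters held it in 6.86% (5.54 to 8.45) and members at promoters in 1.42% (0.719 to 2.77). The mirrored regions held it at their NanogBiD FLAG summits in 11.8% (10.4 to 13.4), and the members minus these came to -6.76 points (-8.58 to -4.96). The members minus the BRG1-losing regions came to -0.517 points, with an interval that spans 0. Around the NanogBiD BRG1 summit the members held it in 7.10% (5.98 to 8.41), against 1.73% (1.22 to 2.46) 1 kb away. All NanogBiD BRG1 summits were not counted.

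The OCT octamer, ATGCAAAT, stood in 1.27% of member windows (0.84 to 1.92) against 0.404% (0.196 to 0.832) 1 kb away and 1.81% of all NanogWT FLAG windows. The homeodomain core with the flank that NANOG prefers, TAATGG, stood in 3.46% (2.70 to 4.43) against 3.70% (2.90 to 4.69) 1 kb away and 5.00% of all NanogWT FLAG windows, and SOX (ACAATG) in 5.25% (4.30 to 6.41) against 5.54% (4.56 to 6.72) and 7.11%. For SOX, the share at promoter members was 3.01% (1.89 to 4.77) against 6.73% (4.94 to 9.10) 1 kb away, and away from promoters 6.34% (5.08 to 7.89) against 4.97% (3.86 to 6.37), where the intervals overlapped. TEAD (GGAATG) stood in 7.27% (6.14 to 8.59) against 5.48% (4.51 to 6.66) and 7.41% of all, and RUNX (TGTGGTT) in 2.89% (2.20 to 3.79) against 2.66% (2.0 to 3.52) and 3.16%.

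The GC box GGGCGG, bound by SP and KLF factors, differed between the kinds of member. It stood in 10.1% (8.15 to 12.4) of members with BRG1 in both arms and 3.82% (2.78 to 5.22) of those with BRG1 in NanogBiD only, a difference of 6.27 points (3.88 to 8.83), against 6.79% of all NanogWT FLAG windows. At promoter members the share was 14.9% (12.2 to 18) and away from promoters 2.57% (1.81 to 3.65), and how far the promoter share accounts for the difference was not tested. The ETS motif CCGGAAG stood in 1.21% (0.794 to 1.85) of member windows against 0.173% (0.0589 to 0.508) 1 kb away and 1.23% of all. The CCAAT box stood in 10.6% (9.20 to 12.1) against 13% (11.5 to 14.7) 1 kb away, with overlapping intervals. In all NanogWT FLAG windows it stood in 13.0%, above the interval of the members. The E-box CACGTG stood in 1.85% (1.31 to 2.60) against 1.64%. The CRE, bound by CREB and ATF factors and spelled TGACGTCA, stood in 0.231% (0.0898 to 0.592) against 0.238% and CTCF in 0.462% (0.234 to 0.909) against 0.206%. A match is a stretch of letters and not a bound site.

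**Figure D5:**
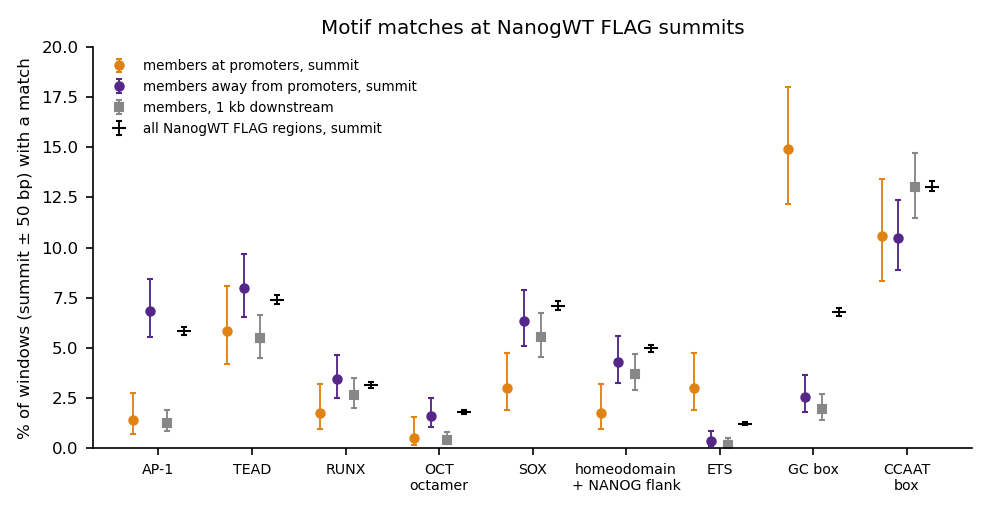
Share of windows, 50 bp either side, with a motif match (y axis, %) at NanogWT FLAG summits of members at and away from promoters, 1 kb downstream of members, and at all NanogWT FLAG summits, with Wilson 95% intervals. AP-1 stands at 6.86% in members away from promoters and 1.42% at promoters, and the GC box at 14.9% in members at promoters.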

How the data were processed

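The authors trimmed CUT&Tag reads with Trim Galore 0.6.4, aligned them to mm10 with Bowtie2 2.4.5, filtered them with SAMtools 1.16.1, merged replicates and called peaks with MACS 1.4.2, with no control library named. The deposited peak lists give a score per peak (the caller's significance, 50.0 at the lowest), and the deposited summit lists give the signal, the tag pileup called height here. The methods state that signals were scaled to read depth; the deposited summit signals are whole numbers, so they do not look scaled, and depth is unknown.

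Peaks and summits were joined by name, and overlaps needed 1 bp. Start sites came from GENCODE vM21 and sequence from GRCm38. Scripts used Python 3.11.15, pandas 2.3.3, SciPy 1.17.1 and pysam 0.24.0, and the region steps were tested on simulated lists. Shares carry Wilson 95% intervals, differences Newcombe intervals, and medians order-statistic intervals, all for counting error only. With 1 library per group no test was run.

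Members and lists were chosen with earlier results of these data known. Named regions ranked by the lower of the NanogWT FLAG and NanogBiD BRG1 scores, off chromosome 18: 5 of each kind, 3 for each one-sided H3K27ac state. Named genes were the 20 leading protein-coding promoters and the listed genes with a member. Of these, 1 gene is not reported here. The alternatives changed thresholds, merging, overlap, chromosomes, windows and scaling.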

Additional observations from a re-analysis of the deposited data

How the results depend on the processing

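Of 99 recomputed values 59 stayed within the interval of the value as reported, or within 1.5 times the count, and 40 moved outside it. Leaving out scaffolds and Y could change none, as no member lies there. Direct overlap of the defining peaks kept 1729 of 1732 members and could change little. Requiring a score of at least 100 for both peaks that make a member left 79 regions, with BRG1 in NanogBiD only in 25.3%, H3K27ac in NanogBiD only in 2.53% and in NanogWT only in 15.2%, H3K4me1 in NanogBiD only in 2.53% and in NanogWT only in 7.59%, promoters in 45.6%, a median BRG1 ratio of 0.00, and 81.0% of H3K27ac and 90.3% of H3K4me1 kept. A score of at least 100 in every list gave 807 regions, with 51.2%, 7.68%, 10.5% and, for promoters, 51.8%, and 83.6% of H3K27ac and 61.0% of H3K4me1 kept, but 728 of these had a NanogBiD FLAG peak in the full list and 79 overlapped a member. The 20000 highest-scoring peaks of each list gave BRG1 in NanogBiD only in 19.8%, H3K27ac in 5.60% and 7.80%, H3K4me1 in 12.1% and 9.56%, promoters in 57.3%, a BRG1 ratio of 0.00, and 89.4% and 76.8% kept, and 2 of 1820 regions overlapped a member. With at least 15 NanogWT FLAG tags, an alternative chosen after seeing the data, 448 members had BRG1 in NanogBiD only in 45.5%, H3K27ac in NanogBiD only in 4.46% and in NanogWT only in 18.1%, H3K4me1 in 5.13% and 23.4%, promoters in 26.3%, AP-1 in 4.02%, and 70.7% and 63.3% kept. Promoters of 1 kb gave 28.5%, motif windows of 25 bp and 100 bp either side gave AP-1 in 2.19% and 10.7%, and centring the BRG1 ratio on all regions gave -0.28. The kept shares were recomputed as results added after seeing the data, and they exceeded those of the BRG1-losing regions in 6 of 6 alternatives that keep to the members for each mark, by 24.2 to 36.8 points for H3K27ac and 14.2 to 27.9 for H3K4me1. Some of these alternatives hold nearly the same members, so they are not 6 separate checks. Apart from the alternatives that change which regions are chosen, the cause was not tested. No paired analysis was possible because a group holds 1 merged library. Depth is unknown, so a peak missing in 1 arm can be a peak just under the threshold.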
